A study of Rattus norvegicus with 83 samples.

Results

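The receptors for thyroid hormone and some of the genes known to answer to it were followed through the offspring of rat dams given inhibitors of hormone synthesis. The set was named as 6 genes, Thra, Thrb, Klf9, Me1, Ucp2 and Cpt1a, among the 17483 gene symbols of the deposited count table, and all 6 were found by symbol. The assay was BRB-seq (bulk RNA barcoding), in which the 3′ ends of polyadenylated RNA receive a sample barcode and the samples are then sequenced as a pool. Pregnant Sprague-Dawley dams received corn oil (vehicle), methimazole at 8 or 16 mg/kg body weight per day (MMI8, MMI16) or amitrole at 25 or 50 mg/kg body weight per day (Ami25, Ami50) by gavage from gestational day 7. Offspring were sampled at gestational day 21 (GD21, 6 libraries in each of the 5 groups) and at pup day 16 (PD16, 10 vehicle, 10 MMI8, 10 MMI16, 11 Ami25 and 12 Ami50 libraries). The same vehicle libraries of a stage serve every treated group of that stage. Litter is not labelled, and a p-value here reflects only how much the sampled animals' libraries varied.

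Methimazole and amitrole block thyroid peroxidase, which adds iodine to thyroglobulin when the gland makes the hormone. Thra and Thrb encode the nuclear receptors TRα and TRβ, which sit on DNA, usually with a retinoid X receptor as partner, and exchange corepressors for coactivators when triiodothyronine binds. Klf9 (a Krüppel-like transcription factor), Me1 (cytosolic malic enzyme, a source of NADPH), Ucp2 (a carrier of the mitochondrial inner membrane) and Cpt1a (carnitine palmitoyltransferase 1A, which commits long-chain fatty acids to entry into mitochondria) are genes whose expression thyroid hormone can raise, to a degree that depends on the tissue.

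The promoters of 3 members are shown because the results turn on these genes: Cpt1a, lower in every treated PD16 group, and Ucp2 and Klf9, higher in the amitrole groups. Each sequence is the 250 bases before the start of the gene on its own strand, from RefSeq (build GRCr8; the counts were made on rn6). They lie at chr1:209995910-209996159 (plus strand), chr1:164251123-164251372 (plus strand) and chr1:230126396-230126645 (plus strand). Capitals mark CCAAT boxes, read on both strands; in Klf9 a pair of them overlaps as CCAATTGG.
Cpt1a: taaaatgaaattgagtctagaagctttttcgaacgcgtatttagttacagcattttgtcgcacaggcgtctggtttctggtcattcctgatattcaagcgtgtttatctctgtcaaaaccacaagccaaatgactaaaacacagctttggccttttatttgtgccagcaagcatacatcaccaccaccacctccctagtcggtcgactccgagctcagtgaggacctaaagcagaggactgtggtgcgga
Ucp2: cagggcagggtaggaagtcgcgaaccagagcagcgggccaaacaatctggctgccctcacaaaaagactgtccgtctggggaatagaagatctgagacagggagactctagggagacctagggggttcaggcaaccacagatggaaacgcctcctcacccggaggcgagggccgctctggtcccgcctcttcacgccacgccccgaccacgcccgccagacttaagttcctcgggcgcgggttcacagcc
Klf9: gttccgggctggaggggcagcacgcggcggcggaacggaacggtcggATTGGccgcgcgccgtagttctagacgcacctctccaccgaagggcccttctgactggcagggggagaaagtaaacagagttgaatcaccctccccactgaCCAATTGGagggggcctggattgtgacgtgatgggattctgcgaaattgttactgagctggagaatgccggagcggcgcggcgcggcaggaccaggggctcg
The thyroid hormone response hexamer AGGTCA, searched on both strands, did not occur in these windows in any of the 6 members, and 14.1% of all 33469 promoters of this length hold it. Its direct repeat with 4 bases between (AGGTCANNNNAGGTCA) occurred in 1 promoter of all. CCAAT boxes were present in 34.0% of promoters, and the GC box GGGCGG in 30.5%. The absence of a match says only that these letters are not in this window.

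Libraries totalled 495369 to 1627114 counts at GD21 and 202270 to 1186973 at PD16, where 1 count at the median total was 2.03 CPM (counts scaled to a common library total). Labels and transcripts disagreed in ways that touch every result here. In each library the 7 adrenal cortex markers summed to between 7610.1 and 58867 CPM, while the 10 testis markers summed to at most 13.5 CPM, although the samples are labelled testis; they are named here by stage and treatment only. The embryonic globins took 8.79 to 22.9% of globin counts in the PD16 vehicle and methimazole libraries, and 0.0473 to 0.878% in all others. Alb, made by liver, reached 200 CPM in 15 libraries, 5 of them at PD16. The Y-linked gene Eif2s3y did not reach 10 CPM in 8 of the 12 libraries of PD16 Ami50, and did so in all others. In such bulk samples, fewer cells of a type and less RNA per cell cannot be told apart.

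At PD16, Cpt1a was called lower under both compounds, Klf9, Me1 and Ucp2 were called higher under amitrole, Thrb was called lower in Ami50, and Thra was not called. Against vehicle, 1 of the 6 members was called in MMI8 and 1 in MMI16, in both cases Cpt1a. In Ami25, 4 were called (Klf9, Me1 and Ucp2 higher, Cpt1a lower), and in Ami50, 5 (the same, and Thrb lower). Calls were made with edgeR's quasi-likelihood test with a threshold of 0.05 on p adjusted (Benjamini-Hochberg) over all genes tested. Among the 4906 genes that passed the filter on low counts, 8.36% were called in MMI8, 8.11% in MMI16, 55.4% in Ami25 and 53.5% in Ami50. Me1, Ucp2 and Cpt1a passed that filter at PD16. Thra, Thrb and Klf9 did not, and their values come from the fit of 14380 genes with no filter, in which 2.77%, 3.16%, 23.8% and 23.1% were called. The share of members called for amitrole is therefore to be read against a background in which more than 50% of filtered genes were called. At GD21, where Thra and Klf9 passed the filter too, 0 of the 6 members and 0 of 6236 filtered genes (0.0%, with or without the filter) were called in any of the 4 treated groups, and 175 (MMI8), 210.0 (MMI16), 579 (Ami25) and 431 (Ami50) genes had an unadjusted p under 0.05. DESeq2 called 22 genes in GD21 Ami50 and no member there.

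**Figure D1:**
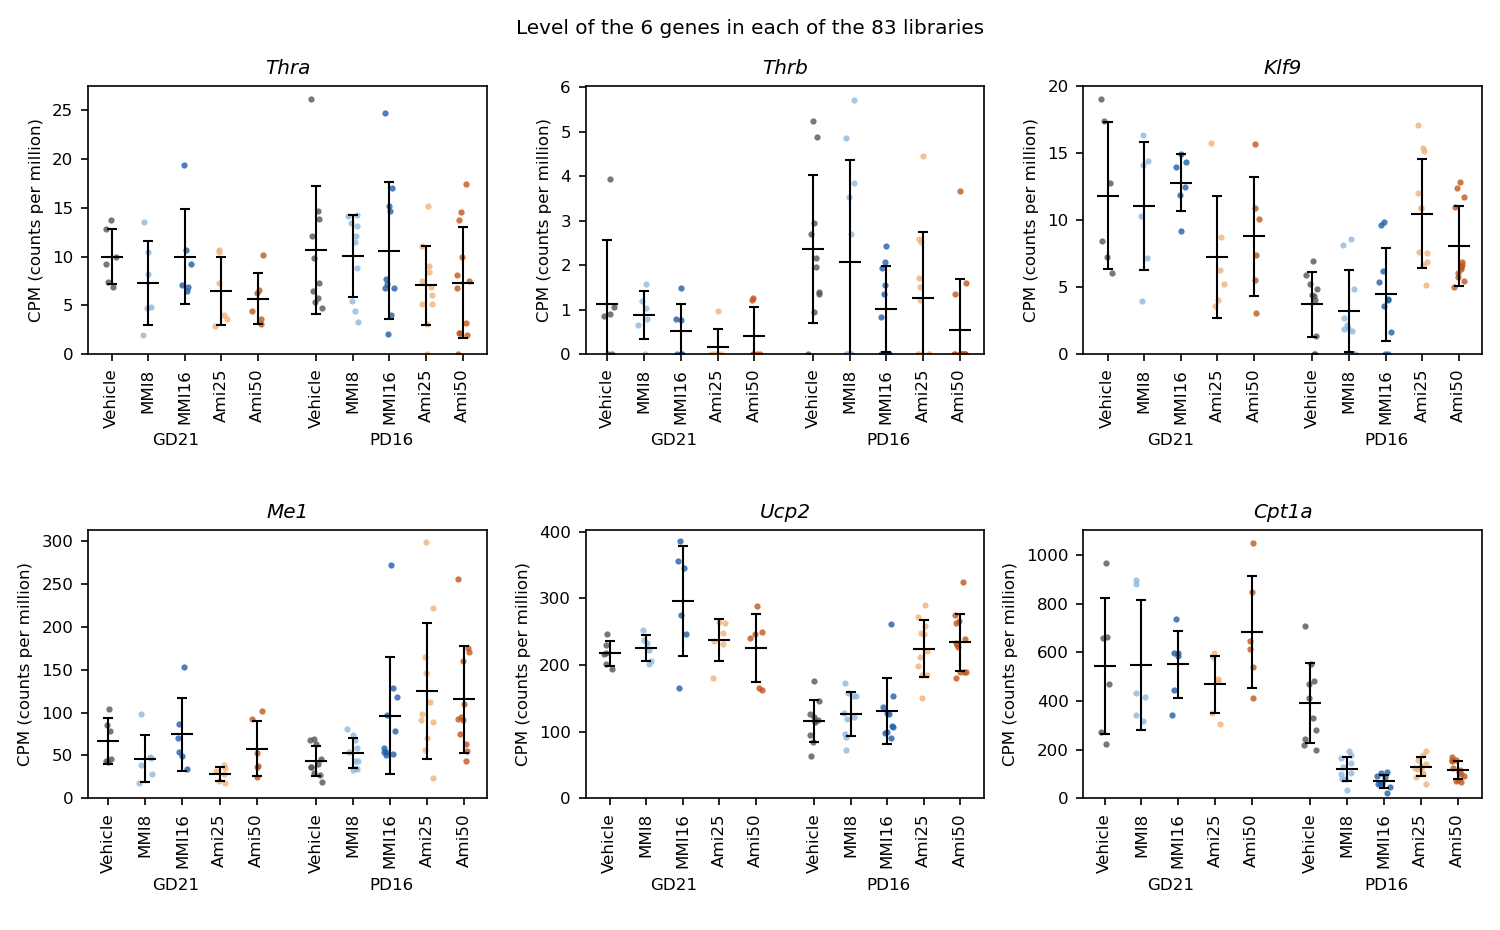
Expression of the 6 genes in every library (points, CPM) in the 10 groups of treatment and stage, with the group mean ± SD. Cpt1a is below every vehicle library in all 43 treated PD16 libraries, the PD16 medians of Ucp2 and Klf9 are lower in vehicle and methimazole than in amitrole (single MMI16 libraries reach 262.0 and 9.89 CPM), and Thrb is at 0 in 39 libraries.

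The receptor genes gave few counts. Thra had 492 counts in all libraries together and Thrb 59, of 57573311, and Thrb had no count in 39 of the 83 libraries. For Thra, counts pooled over the libraries of a group gave 10.5 CPM in PD16 vehicle (exact 95% Poisson interval 8.10 to 13.3), 10.2 in MMI8 (7.35 to 13.7) and 10.7 in MMI16 (8.05 to 13.8). The amitrole groups lay lower, at 6.83 CPM in Ami25 (4.88 to 9.30) and 7.03 in Ami50 (5.13 to 9.40). The intervals of vehicle and both amitrole groups overlap, and none of these differences was called. The log2 fold change was −0.57 (SE 0.33) in Ami25 and −0.48 (SE 0.32) in Ami50, with edgeR adjusted p of 0.232 and 0.322. At GD21 the amitrole groups were also the lowest, again with no call. Levels were 9.93 CPM in vehicle (7.73 to 12.6), 9.22 in MMI16, 8.16 in MMI8 (6.09 to 10.7), 6.91 in Ami25 and 6.04 in Ami50 (4.16 to 8.48). Over all 10 groups, each group's Thra libraries and its pooled interval overlap those of the next in order. These intervals cover counting error only.

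Thra shares its locus with Nr1d1, the gene of the circadian repressor REV-ERBα, whose transcript runs in the opposite direction. Their RefSeq models (GRCr8) share 1061 bases, and the strand setting of the authors' counting is not given, so reads from the shared stretch cannot be told apart. Nr1d1, chosen for this position, had a pooled level of 1.72 CPM in PD16 vehicle, 1.89 in MMI8, 1.14 in MMI16, 4.78 in Ami25 and 4.06 in Ami50. It rose in Ami25 by 1.41 on the log2 scale (SE 0.48, edgeR adjusted p = 0.0184), and its difference of 1.21 in Ami50 was not called (edgeR adjusted p = 0.0548). These Nr1d1 levels rest on 11 counts in vehicle, 8 in MMI8, 6 in MMI16, 28 in Ami25 and 26 in Ami50. In Ami25, 12.5% of the genes fitted without a filter were called higher. Nr1d1 lay higher in the amitrole groups, where Thra lay lower with no call, and mixing of their reads was not tested.

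Thrb was at 1 to 14 counts per group. At PD16, 14 counts pooled to 2.18 CPM in vehicle (1.19 to 3.66), 9 to 2.13 in MMI8 (0.972 to 4.04), 6 to 1.14 in MMI16 (0.419 to 2.49), 8 to 1.37 in Ami25 (0.590 to 2.69) and 3 to 0.469 in Ami50 (0.0966 to 1.37). In Ami50, 9 of the 12 libraries had no Thrb count, and the ratio of its pooled level to that of vehicle was 0.215 (exact 95% interval from the counts 0.0395 to 0.769). Thrb fell in Ami50 by 1.73 on the log2 scale (SE 0.65, edgeR adjusted p = 0.0392, where 10.8% of the genes fitted without a filter were called lower). That call rests on single counts. It was lost with DESeq2 (log2 fold change −1.81, adjusted p = 0.0676), without the libraries of high Alb (−1.88, edgeR adjusted p = 0.0543) and without those of low Eif2s3y (−1.24, edgeR adjusted p = 0.373). It was also lost on leaving out any 1 of 12 single libraries (vehicle 3, 4, 24 or 59, or Ami50 17, 18, 38, 40, 83, 84, 85 or 86), with edgeR adjusted p of up to 0.0894. At GD21 the groups had 7 counts (vehicle), 6 (MMI8), 3 (MMI16), 1 (Ami25) and 2 (Ami50), and none was called.

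Cpt1a was the member with the most counts (20565) and the 1 that was called lower in all 4 treated groups at PD16. Its libraries held 201 to 707 CPM in PD16 vehicle (median 369.7), 35.0 to 195 in MMI8 (median 116), 22.7 to 108 in MMI16 (median 63.3), 59.4 to 193 in Ami25 (median 124) and 66.1 to 172 in Ami50 (median 112). All 43 treated libraries lay below all 10 vehicle libraries. The background is the 5751 genes with a mean of 10 CPM or more over all libraries. Of these, 2.66% were separated from vehicle in this direction in MMI8, 3.36% in MMI16, 7.56% in Ami25 and 7.56% in Ami50. Cpt1a fell 3.30-fold in MMI8 (log2 fold change −1.72, SE 0.21, edgeR adjusted p = 4.14e-09) and 6.0-fold in MMI16 (−2.59, SE 0.23, edgeR adjusted p = 5.72e-14). It fell 2.92-fold in Ami25 (−1.54, SE 0.20, edgeR adjusted p = 4.24e-09) and 3.26-fold in Ami50 (−1.70, SE 0.20, edgeR adjusted p = 2.21e-10). These 4 calls were made under all 9 alternatives run, and on leaving out each library in turn. The share of filtered genes called lower was 6.89% in MMI8, 7.26% in MMI16, 27.5% in Ami25 and 26.5% in Ami50.

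Between doses, the log2 difference of Cpt1a in MMI16 from MMI8 was −0.86 (95% interval −1.36 to −0.37), which was not called with edgeR (adjusted p = 0.0540; 2.08% of filtered genes called, 0.688% without a filter). DESeq2 called it (−0.82, adjusted p = 0.0240), as did edgeR on leaving out MMI8 library 25, 65 or 66 or MMI16 library 29, 32 or 73 (lowest adjusted p = 0.0102). These were 1 of 9 alternatives and 6 of 20 omissions of 1 library. The difference weakened to −0.74 under the alternatives, with edgeR adjusted p of up to 0.220. The 1 MMI16 library of high Alb had the lowest Cpt1a, 22.7 CPM against 47.4 to 108 in the 9 others. Ami50 and Ami25 differed by −0.16 (95% interval −0.58 to 0.26), a comparison with 0 filtered genes called by edgeR (0.0%), although 230.0 had an unadjusted p under 0.05, and 1 gene called with no filter (0.00695%). The doses of the compounds differ, so the levels of Ami50 and MMI16 are set side by side: 116 ± 36.8 CPM (SD, n = 12) and 70.8 ± 27.0 CPM (SD, n = 10). Within Ami50, the 8 libraries of low Eif2s3y averaged 132 CPM and the 4 others 82.7 CPM. In order of pooled level, the step from PD16 vehicle (372.5 CPM) to PD16 Ami25 (127 CPM) was the 1 step between neighbouring groups whose libraries did not overlap.

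At GD21 no such difference was seen. Cpt1a libraries held 222 to 967 CPM in vehicle (median 565), 318 to 898 in MMI8 (424), 344 to 737 in MMI16 (589.7), 307 to 595 in Ami25 (487) and 411 to 1050.4 in Ami50 (629). All groups overlap, and log2 fold changes against vehicle ran from −0.20 in Ami25 to 0.35 in Ami50. All 43 treated PD16 libraries also lay below all 30 GD21 libraries. The share of all genes that did so was not computed. Within a treatment, PD16 lay below GD21 in 6.92% (MMI8), 5.29% (MMI16), 3.16% (Ami25) and 3.53% (Ami50) of the 5751 genes.

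**Figure D2:**
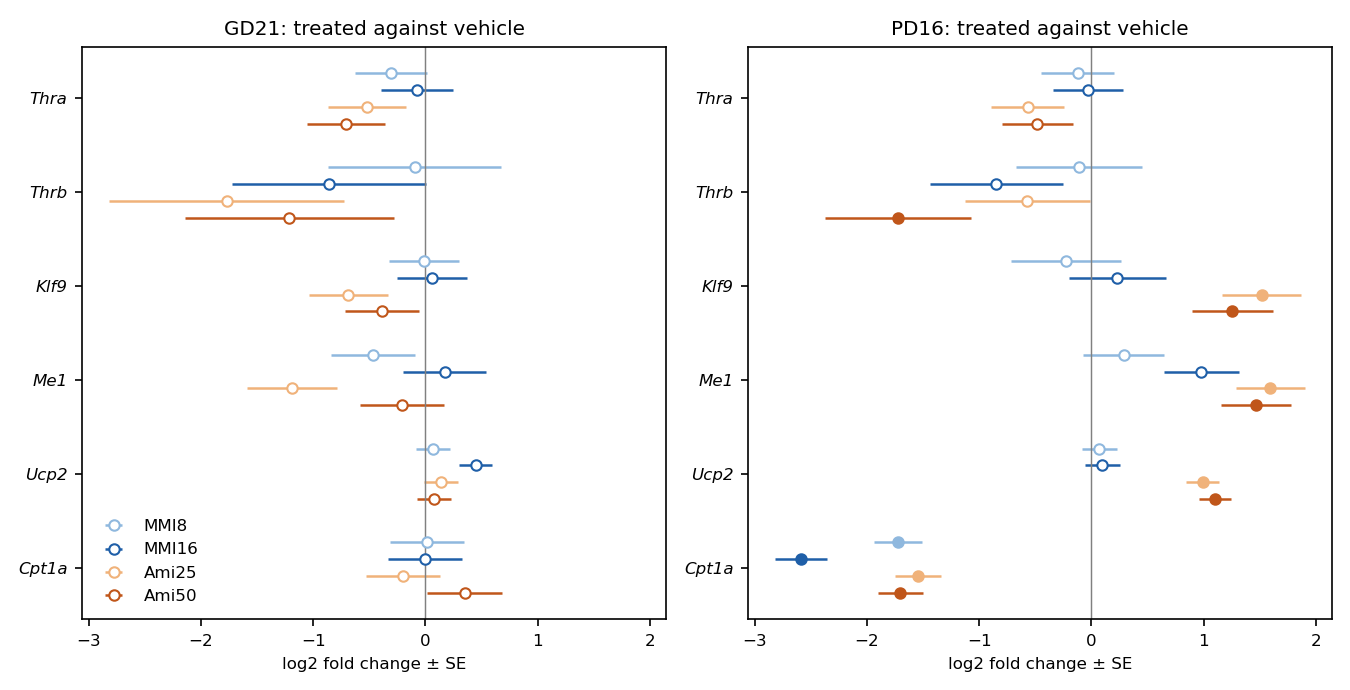
Log2 fold change ± SE of the 6 genes against vehicle of the same stage, for each treatment at GD21 and PD16; filled symbols were called by edgeR. At GD21 nothing is filled; at PD16 Cpt1a lies between −1.54 and −2.59 in all 4 groups, and Klf9, Me1 and Ucp2 are called on the positive side in both amitrole groups.

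Ucp2, the second most counted member (11885 counts), was called higher than vehicle at PD16 under amitrole and not under methimazole, with libraries of the compounds overlapping. Its PD16 libraries held 63.6 to 176 CPM in vehicle (median 117), 72.8 to 173 in MMI8 (125), 90.5 to 262 in MMI16 (117), 151 to 289.6 in Ami25 (222) and 181 to 325 in Ami50 (231). Vehicle and MMI8 libraries cover nearly the same range, and MMI16 reaches higher through library 10, at 262.0 CPM, above every vehicle library and above the medians of Ami25 and Ami50. Ami25 overlaps the top of the vehicle range, and all 12 Ami50 libraries lie above all vehicle libraries (as did 4.61% of the 5751 genes). Ucp2 rose 1.99-fold in Ami25 (log2 fold change 0.99, SE 0.15, edgeR adjusted p = 4.95e-08) and 2.15-fold in Ami50 (1.10, SE 0.14, edgeR adjusted p = 1.79e-09). Of filtered genes, 27.9% and 27.1% were called higher in these groups. The methimazole values were 0.07 (95% interval −0.24 to 0.38) in MMI8 and 0.10 (−0.21 to 0.41) in MMI16. At GD21 the group means lay between 218 ± 19.0 CPM in vehicle and 296 ± 82.3 CPM in MMI16 (SD, n = 6 each), and the MMI16 difference of 0.45 (SE 0.15) did not pass the adjustment (edgeR unadjusted p = 0.00546, adjusted p = 1.00).

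Klf9 was higher in the same groups, on far fewer data (490 counts in all). In PD16 vehicle its libraries ranged from 0 to 6.94 CPM (median 4.37, 22 counts together), in MMI8 from 0 to 8.56 (2.06, 13 counts), in MMI16 from 0 to 9.89 (4.10, 22 counts), in Ami25 from 5.16 to 17.1 (10.9, 59 counts) and in Ami50 from 4.99 to 12.9 (6.56, 52 counts). Every amitrole library had a Klf9 count, and the ranges of amitrole and vehicle still overlap. Klf9 rose by 1.52 on the log2 scale in Ami25 (SE 0.35, edgeR adjusted p = 0.000269) and by 1.25 in Ami50 (SE 0.36, edgeR adjusted p = 0.00427), where 12.5% and 12.3% of the genes fitted without a filter were called higher. The differences in MMI8 (−0.23, 95% interval −1.18 to 0.73) and MMI16 (0.23, −0.62 to 1.07) were not called. At GD21 the pooled level was 12.4 CPM in vehicle, 12.2 in MMI8, 12.5 in MMI16, 7.33 in Ami25 and 9.15 in Ami50, with no call.

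Me1 varied widely between libraries of a group. Its PD16 libraries held 19.4 to 69.4 CPM in vehicle (median 38.6), 33.3 to 81.0 in MMI8 (49.0), 50.6 to 272 in MMI16 (68.4), 24.0 to 299 in Ami25 (97.9) and 43.5 to 256 in Ami50 (93.6). The treated groups reach higher than vehicle, and all overlap it. Me1 rose 3.02-fold in Ami25 (log2 fold change 1.59, SE 0.31, edgeR adjusted p = 2.14e-05) and 2.77-fold in Ami50 (1.47, SE 0.31, edgeR adjusted p = 7.30e-05). The Ami50 call was lost without the libraries of low Eif2s3y (0.92, edgeR adjusted p = 0.0704), which averaged 136 CPM against 75.2 CPM in the 4 others. In MMI16 the difference of 0.98 (SE 0.33) was not called (edgeR adjusted p = 0.0631). It was called by DESeq2 (1.04, adjusted p = 0.0120) and by edgeR on only the compared libraries (0.99, adjusted p = 0.0211). With edgeR it was also called on leaving out vehicle library 4 or MMI16 library 12 or 75. These were 2 of 9 alternatives and 3 of 20 omissions of 1 library. The difference weakened to 0.77 under the alternatives and also under the omissions, with edgeR adjusted p of up to 0.194 in each. The MMI16 library at 272 CPM also had the smallest total of the series. In GD21 Ami25 all 6 libraries (18.3 to 38.6 CPM) lay below all 6 vehicle libraries (42.2 to 105 CPM), as did 0.243% of the 5751 genes, and the difference of −1.19 (SE 0.40) was not called (edgeR adjusted p = 0.473).

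Ami50 and MMI16, the higher dose of each compound, differ in dose as well as compound. Klf9 (1.02, SE 0.36, edgeR adjusted p = 0.0324), Ucp2 (1.00, edgeR adjusted p = 6.04e-08) and Cpt1a (0.88, SE 0.24, edgeR adjusted p = 0.00204) were called higher in Ami50, 3 of 6 members, where 47.5% of filtered genes were called (22.6% higher) and 19.0% in the fit with no filter (10.2% higher). The Cpt1a call was lost without the libraries of low Eif2s3y (0.49, edgeR adjusted p = 0.269). The Klf9 call was lost in edgeR's legacy fit (1.01, adjusted p = 0.0628), without the libraries of high Alb (0.74, edgeR adjusted p = 0.254) and on leaving out MMI16 library 9, 12, 29 or 31 or Ami50 library 17 or 19. Me1, at 0.49 (edgeR adjusted p = 0.168), was called without MMI16 library 10 (0.69, edgeR adjusted p = 0.0439) and was −0.0558, not called, without the libraries of low Eif2s3y.

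The rises under amitrole came with other differences between the same libraries. The embryonic globin share was 14.8 ± 2.51% of globin counts in PD16 vehicle, 0.180 ± 0.0698% in Ami25 and 0.142 ± 0.0798% in Ami50 (SD). The 10 leukocyte markers, all detected in each of these groups, summed to 155 to 210.2 CPM in the vehicle libraries, 84.3 to 158 in MMI8, 83.4 to 150.2 in MMI16, 174 to 436 in Ami25 and 248 to 432 in Ami50. The 8 markers of fat summed to 8.67 to 34.7 CPM in vehicle, 14.1 to 42.2 in MMI8, 20.2 to 47.2 in MMI16, 49.0 to 128 in Ami25 and 48.3 to 97.7 in Ami50, with Adipoq, Plin1 and Cidec at 0 in vehicle, MMI16 and Ami50. The 7 adrenal cortex markers summed to 12615 to 19643 CPM in vehicle, 14844 to 23483 in MMI8, 7610.1 to 24516 in MMI16, 11507 to 50727 in Ami25 and 21551 to 58867 in Ami50. The 6 adrenal medulla markers summed to 736 to 969 CPM in vehicle, 765 to 1168 in MMI8, 714 to 1374 in MMI16, 980.1 to 2175 in Ami25 and 1052 to 1642 in Ami50. The red cell markers, 8 of the 10 listed being in the table, summed to 24008 to 34387 CPM in vehicle, 25709 to 40820.0 in MMI8, 23252 to 42534 in MMI16, 62010.0 to 124882 in Ami25 and 61849.6 to 116707 in Ami50. For red cell, medulla and fat markers, all amitrole libraries lay above all vehicle libraries. For red cell and fat markers they lay above all methimazole libraries too. Of the 5751 single genes, 4.47% in Ami25 and 4.61% in Ami50 lay above all vehicle libraries. The part of each list in the rises of Ucp2, Klf9 and Me1 was not tested. The fall of Cpt1a was measured in methimazole libraries, whose globin share (8.79 to 22.9%) covers that of vehicle (11.6 to 19.4%). It was also measured in amitrole libraries, whose share does not. The part of the globin share in this fall was not tested either.

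**Figure D3:**
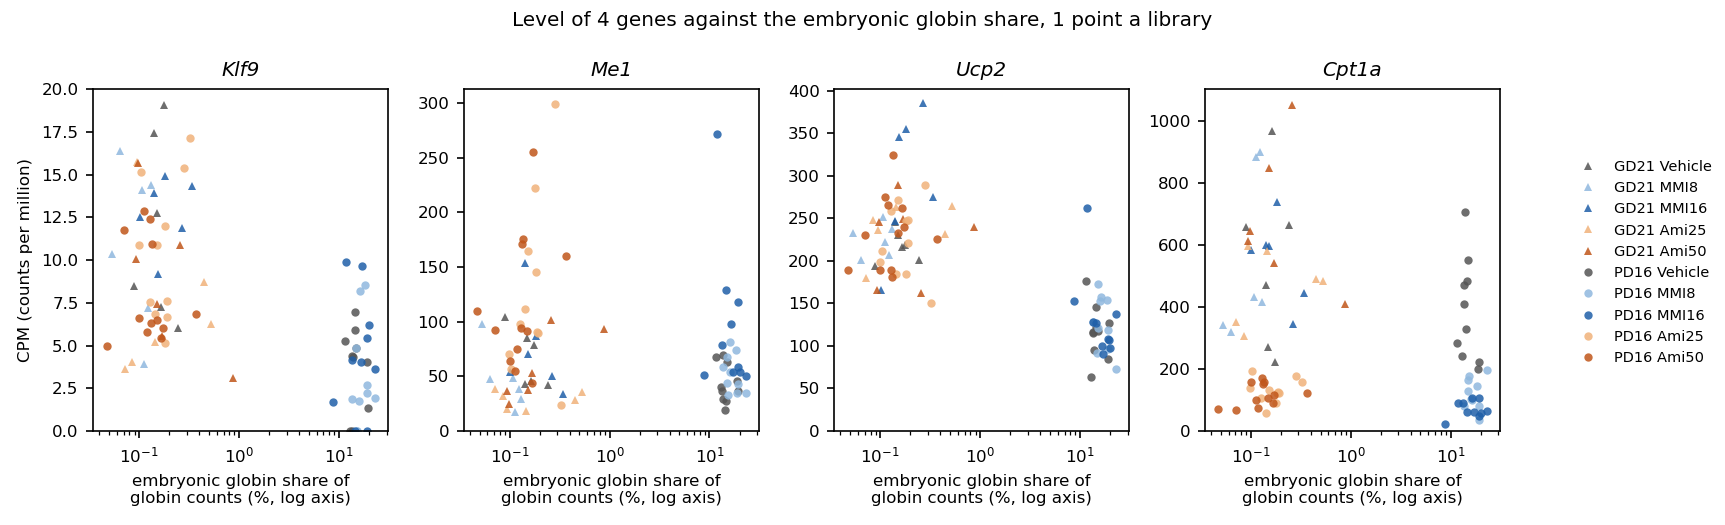
Levels of Klf9, Me1, Ucp2 and Cpt1a (CPM) against the embryonic share of globin counts (percent, log axis), 1 point a library, triangles GD21 and circles PD16. Libraries fall into a set at or above 8.79% (PD16 vehicle and methimazole) and a set at or below 0.878% (all others); treated PD16 libraries of both sets are low in Cpt1a.

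Between the labelled stages, Cpt1a was called lower at PD16 in vehicle and in all 4 treatments, Klf9 and Ucp2 in vehicle and methimazole, and Thra and Thrb in none. The mean embryonic globin share was 14.8% in PD16 vehicle and 0.161% in GD21 vehicle, so it was higher at the later labelled stage. What these stage differences owe to age was therefore not tested. PD16 vehicle lay below GD21 vehicle in Klf9 (log2 fold change −1.91, SE 0.34, edgeR adjusted p = 2.72e-06), Ucp2 (−1.03, SE 0.16, edgeR adjusted p = 4.71e-08) and Cpt1a (−0.65, SE 0.25, edgeR adjusted p = 0.0299), 3 of 6 members, where 46.5% of filtered genes (22.1% lower) and 20.9% without a filter (11.6% lower) were called. All 10 PD16 vehicle libraries were below all 6 GD21 vehicle libraries in Ucp2 (6.52% of genes). The Cpt1a call was lost when only the compared libraries were fitted (−0.68, edgeR adjusted p = 0.111) and without the libraries of high Alb (−0.67, edgeR adjusted p = 0.0852), and Me1, at −0.79 (edgeR adjusted p = 0.0614), was called when only the compared libraries were fitted (−0.83, edgeR adjusted p = 0.00940) and without those of low Eif2s3y (−0.82, edgeR adjusted p = 0.0471).

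The same stage contrast within each treatment, added after the data were seen, gave a like result for methimazole and another for amitrole. Klf9 was lower at PD16, with log2 fold changes of −2.13 in MMI8 and −1.71 in MMI16 (edgeR adjusted p = 6.24e-06 and 5.54e-05), and so was Ucp2, with −1.05 and −1.41 (edgeR adjusted p = 5.62e-08 and 2.28e-12). Neither was called in Ami25 or Ami50, where Klf9 differed by 0.29 and −0.27 and Ucp2 by −0.22 and −0.05. Me1 was called higher at PD16 in Ami25 (1.95, edgeR adjusted p = 6.78e-05). Cpt1a was lower at PD16 in every treated group, with −2.39 in MMI8, −3.24 in MMI16, −2.03 in Ami25 and −2.72 in Ami50 (edgeR adjusted p from 1.15e-15 to 1.48e-09), and its libraries did not overlap between the stages (as in this direction in 6.92%, 5.29%, 3.16% and 3.53% of the 5751 genes). Members called numbered 3, 3, 2 and 1 of 6, against 48.7%, 47.0%, 11.2% and 7.86% of filtered genes and 22.4%, 20.2%, 3.65% and 2.99% without a filter in MMI8, MMI16, Ami25 and Ami50. Of filtered genes, 26.3%, 24.4%, 7.13% and 6.47% were called lower at PD16 in these groups, and 4.12% higher in Ami25. Without a filter, 13.8% were called lower in MMI8 and 11.3% in MMI16. The amitrole libraries of both stages have an embryonic globin share of at most 0.878%.

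The difference between the effects at PD16 and at GD21 was tested as an interaction. For MMI16, 1 of 6 members was called, Cpt1a (−2.59, SE 0.39, edgeR adjusted p = 2.51e-07), where 5.22% of filtered genes were (5.11% lower, and 2.03% without a filter). For Ami50, 4 of 6 were called: Cpt1a (−2.08, SE 0.37, edgeR adjusted p = 4.19e-06), Ucp2 (0.99, SE 0.22, edgeR adjusted p = 0.000173), Me1 (1.65, SE 0.49, edgeR adjusted p = 0.00613) and Klf9 (1.64, SE 0.47, edgeR adjusted p = 0.00876), where 32.8% of filtered genes (16.4% higher and 16.4% lower) and 12.8% without a filter (6.72% higher) were called. The Me1 call was lost without the libraries of high Alb (1.43, edgeR adjusted p = 0.0837) and without those of low Eif2s3y (1.13, edgeR adjusted p = 0.120).

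Among the genes listed for mitochondrial fatty acid oxidation, the pathway that Cpt1a opens, no other tested gene was called lower in a treated PD16 group. Of the 16 others tested, 0 were called in MMI8 (log2 fold changes from −0.25 for Eci1 to 0.25 for Acadm, median 0.04, against 0.01 over all genes) and 0 in MMI16 (−0.14 for Acsl1 to 0.41 for Acadvl, median 0.03, against 0.07). In the amitrole groups 15 of 16 rose, with medians of 1.06 in Ami25 and 1.04 in Ami50 against 0.01 and 0.02 over all genes, of which 27.9% and 27.1% were called higher; Eci1 in Ami25 and Acsl1 in Ami50 were not called. Etfdh, which passes electrons from fatty acid oxidation to ubiquinone, averaged 79.7 ± 22.4 CPM in vehicle and 251 ± 90.1 CPM in Ami50 (log2 fold change 1.71, SE 0.17, edgeR adjusted p = 5.12e-13). Decr1, needed for unsaturated fatty acids, averaged 179 ± 28.4 and 550.3 ± 98.8 CPM (1.69, edgeR adjusted p = 8.79e-24). Acadvl, which oxidises very long chains, averaged 36.4 ± 9.49 CPM in vehicle and 111 ± 21.5 CPM in Ami25 (1.62, edgeR adjusted p = 9.06e-16). Cpt1a, at the entry to the pathway, fell in the same libraries. Acot2, a mitochondrial acyl-CoA thioesterase outside these genes and named for its likeness to Cpt1a, also had lower pooled levels. They were 189.5 CPM in PD16 vehicle, 39.2 in MMI8, 20.7 in MMI16, 55.3 in Ami25 and 38.9 in Ami50. Between stages, 16 of the 17 others tested were lower in PD16 vehicle than in GD21 vehicle, as were 16 in MMI8 and 17 in MMI16 (22.1%, 26.3% and 24.4% of all filtered genes were), while 0 were called in Ami25 and 1, Etfdh, was higher in Ami50 (0.54).

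**Figure D4:**
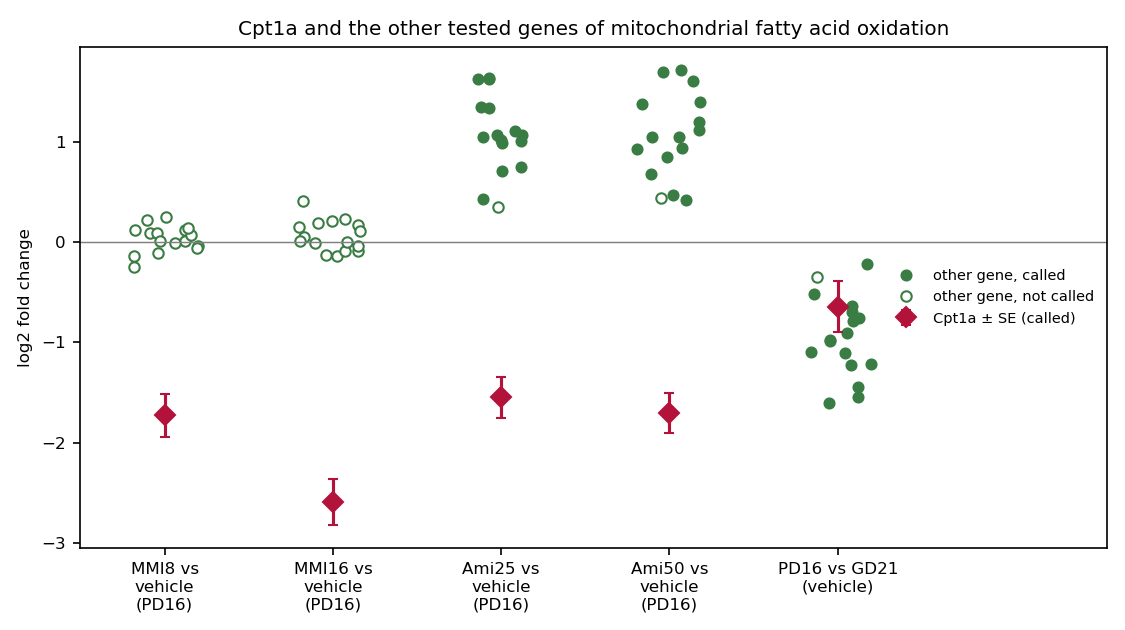
Log2 fold changes of Cpt1a (diamond, ± SE) and of the other fatty acid oxidation genes tested (circles, filled where called) in 5 comparisons. Against PD16 vehicle, Cpt1a is below every other tested gene of the list in each treated group.

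Among the other enzymes of NADPH supply and fatty acid synthesis, 10 of 19 listed genes were tested at PD16. Me2, the mitochondrial malic enzyme, fell in all 4 groups, from 293 ± 73.0 CPM in vehicle to 49.6 ± 13.6 in MMI8 (log2 fold change −2.57, edgeR adjusted p = 9.68e-25), 37.0 ± 5.17 in MMI16 (−2.98, edgeR adjusted p = 8.90e-28), 36.6 ± 9.65 in Ami25 (−2.98, edgeR adjusted p = 9.42e-29) and 32.4 ± 5.77 in Ami50 (−3.02, edgeR adjusted p = 1.39e-29). Me1, its cytosolic relative, was not called in either methimazole group and rose in both amitrole groups. With Me1, Pgd and Taldo1 rose in both amitrole groups, and with Me2, Acly and Elovl6 fell in both, where 27.5% (Ami25) and 26.5% (Ami50) of filtered genes were called lower. In MMI8, Pgd rose (0.44, edgeR adjusted p = 0.0199), and in MMI16 no gene of this list but Me2 was called. Of 7 mitochondrial carriers tested, Ucp2 and Slc25a20, the carnitine-acylcarnitine carrier, rose in both amitrole groups, and Slc25a4 and Slc25a5, the ADP/ATP carriers, fell in both. In MMI16 the citrate carrier Slc25a1 was the 1 called, higher by 0.47. The share of filtered genes called higher was 27.9% in Ami25, 27.1% in Ami50 and 0.856% in MMI16.

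Most other genes of hormone action lay under the filter. Of 25 listed thyroid hormone-responsive genes 7 were tested at PD16, and beyond Cpt1a, Me1 and Ucp2 these were Atp1b1, Atp2a2, Dbp and Igf1. In MMI8 and MMI16, Cpt1a was the 1 called. In Ami25, Igf1 (1.91) and Dbp (0.61) rose beside Me1 and Ucp2, and in Ami50, Igf1 (1.96) and Atp1b1 (0.44), so that 4 of 7 rose and 1 fell in each (3 of these 5 being Me1, Ucp2 and Cpt1a), with medians of 0.61 and 0.44, where 55.4% and 53.5% of filtered genes were called. Of 14 receptors, partners and coregulators, 3 were tested: 0 were called in methimazole, the corepressor Ncor1 rose in Ami25 (0.49), and Hdac3, a deacetylase of the corepressor complex, fell in Ami25 (−0.43) and Ami50 (−0.61). Of 15 genes of hormone transport and deiodination, Slc3a2, an amino acid transporter subunit, was the 1 tested and rose in Ami25 (0.66) and Ami50 (0.54). Of 3 Krüppel-like genes tested, Klf3 fell in all 4 groups (−0.68, −0.96, −0.77 and −0.93 in MMI8, MMI16, Ami25 and Ami50), Klf10 rose in Ami25 (0.82) and Ami50 (0.53), and Klf6 fell in Ami50 (−0.41). Klf9 is known to answer to glucocorticoids as well, and of 4 genes of that response tested, Sgk1 fell in all 4 groups (−0.82, −0.89, −0.95 and −1.02) and Tsc22d3 in MMI8 (−0.75), where 6.89%, 7.26%, 27.5% and 26.5% of filtered genes were called lower in MMI8, MMI16, Ami25 and Ami50. Any part of glucocorticoids in the Klf9 levels was not tested.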

How the data were processed

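Per the labels' protocols, dams were dosed from gestational day 7 to pup day 22 (the series text ends at pup day 16; birth was due at gestational day 23), and BRB-seq libraries were made from offspring. Reads were aligned with BWA 0.7.4.4 to rn6, per the submitters' processing notes. The authors deposited raw counts per gene symbol and library, with no normalization, per the labels. What annotation and strand setting were used, how molecular barcodes were treated and which animals were littermates is not given in the sources used here.

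CPM here are counts divided by library totals. Tests used R 4.3.3, edgeR 4.0.16 and limma 3.58.1: TMM scaling, filterByExpr with a minimum count of 10, and robust quasi-likelihood fits of all 5 groups of a stage, or all 10 groups for stage contrasts and interactions, with Benjamini-Hochberg adjustment over all genes tested (6236 at GD21, 4906 at PD16, 6287 over both). Members under the filter were read from the same fit with no filter (14430, 14380 and 15034 genes) and from pooled counts with exact Poisson intervals. The scripts were tested on simulated data. Groups came from the labels, and all 83 libraries entered.

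The members and lists were chosen with earlier results of these data known. Named were the 6 members, up to 3 called genes per list and comparison of the largest fold change at 10 CPM or more, Nr1d1 for its position, and the 4 genes most like each member of 300 counts or more. Other list genes that make up a small count were named after their values were seen. One result of the NADPH list is not reported here. The CCAAT, GC and TATA box searches and the 4 stage contrasts within treatments were added after the data were seen. Promoters came from RefSeq (GRCr8), and no coordinates of rn6 were used.

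The alternatives were DESeq2 1.42.0, edgeR with DESeq2 size factors, edgeR with no filter, a fit restricted to the libraries compared, a covariate for the series of library numbers, edgeR's legacy fit, and omission of libraries of high Alb, low Eif2s3y, or totals under 0.5 of the stage median, and of each library in turn.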

Additional observations from a re-analysis of the deposited data

Results flagged for a closer look

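In 6 of 48 groups of member levels, 1 library stood apart from the rest of its group by Dixon's criterion. Chance gives this in about 1 of 20 groups where values are normally distributed, which low counts are not. PD16 Ami25 and PD16 Ami50, with 11 and 12 libraries, were not among the groups tested. Me1 was 272 CPM and Ucp2 262.0 CPM in PD16 MMI16 library 10, above all others of that group, and this library also had the smallest total of the series. Thra was 19.4 CPM in GD21 MMI16 library 47 and 26.2 CPM in PD16 vehicle library 4. Thrb was 3.93 CPM in GD21 vehicle library 62 and 0.968 CPM, a single count, in GD21 Ami25 library 81. The other 5 libraries of that Ami25 group had no count, so any count in 1 library would have met the criterion.

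The treatment effect differed between the stages, by the interaction test, in 5 results. For Cpt1a the log2 difference was −2.59 with MMI16 and −2.08 with Ami50, and for Ami50 it was 1.64 for Klf9, 1.65 for Me1 and 0.99 for Ucp2. The embryonic globin share was higher in PD16 vehicle than in GD21 vehicle and than in PD16 Ami50, and its part in these differences was not tested.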

How the results depend on the processing

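Of 960 member values under the alternatives, 921 kept their direction and side of the threshold, 11 lost a call, 6 gained one and 22 turned direction; each of the 22 was of a difference that was not called, and none of the 31 called results turned. Members called in PD16 MMI16 against vehicle were 1, and 2 with DESeq2 and with only the compared libraries (1 to 2 on leaving out each library). For MMI16 against MMI8 they were 0, 1 with DESeq2 (0 to 1 on leaving out each library). For PD16 Ami50 against vehicle they were 5, and 3 without the libraries of low Eif2s3y. Over all genes, Ami50 against Ami25 went from 0 calls to 11 without those libraries and to 1 with no filter, and GD21 Ami50 from 0 to 22 with DESeq2.

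The differences that turned took these log2 values. Without the libraries of high Alb, Thrb was 1.56 in GD21 MMI8, 0.57 in GD21 MMI16 and 0.0135 in GD21 Ami50, Klf9 −0.31 in GD21 MMI16, Me1 0.16 in GD21 Ami50, Ucp2 −0.0251 in PD16 MMI16, and Thra −0.18 and Ucp2 −0.0963 in MMI16 against MMI8; Thra was 0.0295 between the stages in Ami25. Without those of low Eif2s3y, Me1 was −0.0558 in Ami50 against MMI16 and Ucp2 0.0023 between the stages in Ami50. Without the library under 0.5 of the stage median, Ucp2 was −0.0055 in PD16 MMI16 and −0.0753 against MMI8, and Thra −0.0315 in the MMI16 interaction. With the number series as a covariate, Klf9 was 0.0013 in GD21 MMI8 and Ucp2 −0.0144 in MMI16 against MMI8. With DESeq2, Thrb was 0.0474 in the MMI16 interaction and Me1 0.0912 between the stages in MMI16; that Me1 value was 0.0147 in the legacy fit, and Thra there was 0.0011 with DESeq2 size factors and 0.0038 with only the compared libraries. With no filter, Cpt1a was −0.0174 in GD21 MMI8. The cause was not tested in any of these. No paired analysis was possible because no library number occurs in 2 groups.

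Depth limits Thra, Thrb and Klf9 most: at the PD16 median total 1 count is 2.03 CPM, so a library's level of these genes rests on few counts.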

Other observations

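The genes whose pooled levels ran most like a member's over the 10 groups were listed by Pearson's r of log2(CPM + 1) among about 5561 genes. The points share the same libraries, and r is given as a description. For Cpt1a these were Acot2 (0.986), a mitochondrial acyl-CoA thioesterase, Tmem268 (0.986), Cebpb (0.983), a transcription factor, and Gpt2 (0.983), a mitochondrial alanine aminotransferase. For Ucp2 they were Atp6v1f (0.988), Fxyd5 (0.987), Acp5 (0.984) and Tmem14c (0.982), and for Klf9 Npdc1 (0.989), Rnaset2 (0.979), Eif3f (0.978) and Mien1 (0.976). For Me1 they were Col5a2 (0.946), Fam117b (0.923), Ccnt2 (0.910) and Fn1 (0.899), and for Thra Nudc (0.967), Zmat2 (0.958), Arl6ip6 (0.958) and Pno1 (0.954). Thrb had too few counts for such a list. Between members, Klf9 and Ucp2 had an r of 0.911 over the same groups.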
